A study of Oreochromis niloticus with 24 samples.

Results

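Female LH cells, the pituitary cells that make luteinizing hormone, were compared with the pituitary cells that carried no gonadotroph label. The comparison takes in all 1849 genes of the female table, of 2932 genes in the tables of both sexes. Every gene in the table had been kept by the authors because its log2 fold change in LH or FSH cells over negative cells was above 1 in these same libraries, so adjusted p-values here cover selected genes.

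The fish were sexually mature Nile tilapia (Oreochromis niloticus, Lake Manzala strain), offspring of single-labeled parents, whose LH cells were labeled by tagRFP and whose FSH cells by GFP. Pools of pituitaries (20 per pool in the labels) were dispersed with trypsin and sorted by fluorescence, 4 times for each sex. Each sort gave a red LH fraction, a green FSH fraction and a negative fraction without either label, so that these 3 fractions came from the same transgenic fish. A double-labeled fraction was also collected, which the paper regards as probably doublets of LH and FSH cells. That fraction is not among the libraries used here. The negative fraction is a mixture of the other pituitary cells. With 4 libraries a fraction, 12 female libraries were used, and 12 male libraries served for a comparison of the fold changes.

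In vertebrates the gonadotropins LH and FSH are heterodimers of a common alpha subunit and a hormone-specific beta subunit. Gonadotropin-releasing hormone (GnRH) from the hypothalamus drives their release, and gonadal steroids feed back on the gonadotroph through nuclear receptors. In teleosts the 2 hormones are made by separate cells, and LH is known for its role in final oocyte maturation and ovulation.

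Levels are normalized reads (NR). Each count was divided by the size factor of its library, with no adjustment for gene length, so that levels compare libraries and not genes. The 4 LH libraries held 110893 to 275068 reads on the genes of the table, the FSH libraries 146817 to 520458 and the negative libraries 69091 to 135385. The detection limit was set at 3 reads, which lies between 2.11 and 7.21 NR according to the size factor and covers counting error only. Fold changes are differences of the mean log2(NR + 1), which understates the change of low genes, and are printed with their standard error. Calls needed an adjusted p below 0.05 in limma together with a log2 fold change above 1 or below -1. Libraries carry the repeat number of the labels (repeat 1 to 4 of the sorting), and means are over 4 libraries with their SD.

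The subunit genes were read first, since they check the sort. The LH beta subunit lhb (LOC100534501, linkage group 13, 5233419 to 5236091 on O_niloticus_UMD_NMBU) had 1678, 1123, 1035 and 1504 NR in LH libraries 1 to 4, 13.3, 13.9, 12.01 and 11.8 NR in the FSH libraries and 2.74, 12.3, 11.8 and 3.296 NR in the negative libraries. All LH libraries lay far above all others, and the log2 fold change over negative cells was 7.503 ± 0.36 (adjusted p = 1.38e-11). The FSH beta subunit fshb had 38.6, 23.6, 38.3 and 47.9 NR in the LH libraries against 35.6, 15.8, 69.4 and 18.7 NR in the negative libraries. Those groups overlapped, with a log2 fold change of 0.28 ± 0.34 (adjusted p = 0.543), while the FSH libraries held 35242, 30244, 24856 and 45449 NR. For the common alpha subunit cga the LH libraries gave 3484, 2411, 1806 and 2897 NR and the negative libraries 1514, 1918, 2949 and 1489 NR. These overlapped too (log2 fold change 0.45 ± 0.31, adjusted p = 0.266), and the FSH libraries were higher at 24388, 21885, 15044 and 43236 NR. None of the listed genes of growth hormone, prolactin, thyrotropin, somatolactin and pro-opiomelanocortin cells is among the table's genes, and their levels were not analysed here.

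**Figure D1:**
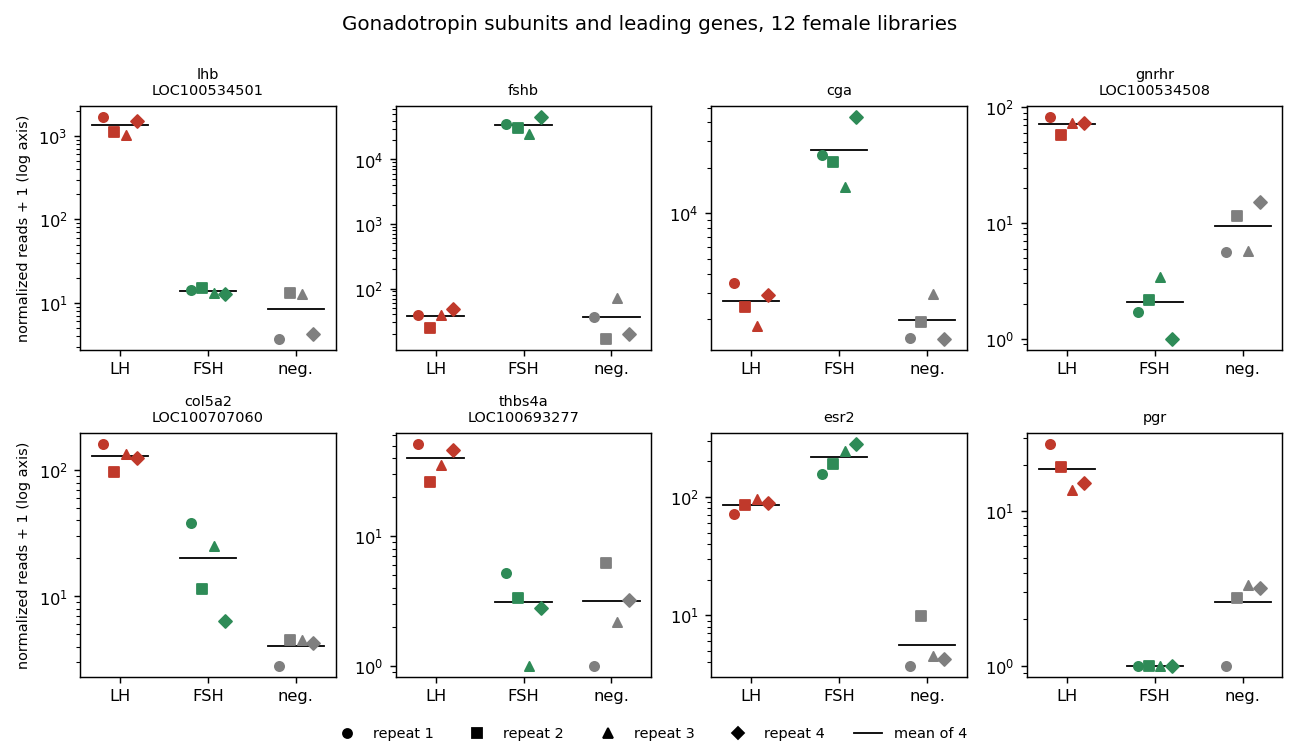
Normalized reads plus 1 (log axis) of 8 genes in the 12 female libraries, by fraction (LH red, FSH green, negative gray). Each symbol is 1 library, its shape gives the repeat number and the line is the mean of 4 libraries. LH libraries stand apart from negative libraries for lhb, gnrhr, col5a2, thbs4a, esr2 and pgr, and overlap them for fshb and cga.

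Of the 1849 genes, 527 (28.5% of the table) were called higher and 21 (1.14%) lower in LH than in negative libraries, while 1301 passed neither limit. The log2 fold change ranged from -2.62 to 7.50 with a median of 0.52 over all genes, and 449 of the 527 rose by no more than 2 on the log2 scale. For 375 of the 527 all LH libraries lay above all negative libraries, which was so for 28.2% of the table. No name was assigned to 173 of the 527, as to 477 of all 1849, and these are given by their ID. In bulk libraries fewer cells of a type and less RNA per cell cannot be told apart.

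FSH libraries divided the 527 genes. In 159 of them all FSH libraries had at most 3 reads, as in 217 of all 1849 genes, and in 46 they had none. Another 143 of the 527 were also called higher in FSH than in negative libraries, where 69.7% of the table was called. Against the FSH libraries themselves 342 of the 527 were called higher in LH libraries (24.5% of the table) and 58 lower (47.6% of the table), and for 338 all LH libraries lay above all FSH libraries (24.1% of the table). Both comparisons share the LH libraries, and the authors chose the table's genes on the same libraries, so these counts are descriptions. A gene not raised in FSH libraries could enter the table only through the LH libraries, and the reverse. The counts of called list members below are therefore descriptions too.

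**Figure D2:**
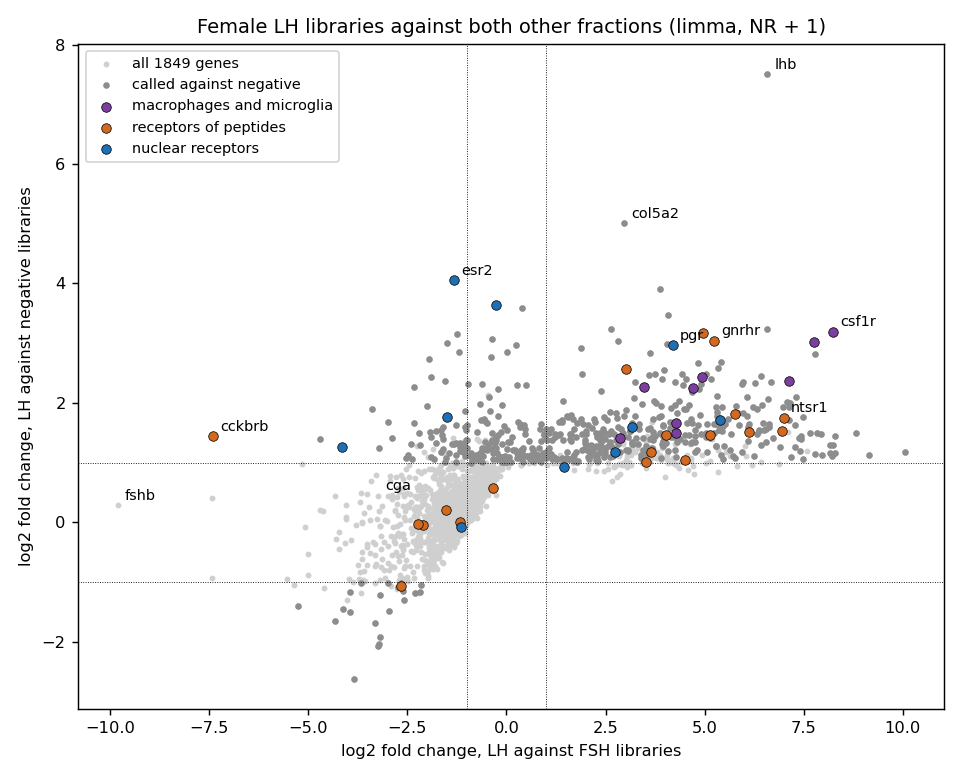
Log2 fold change of LH over negative libraries (vertical) against that of LH over FSH libraries (horizontal) for all 1849 genes, with called genes in dark gray and 3 gene lists in color. The 9 macrophage and microglia genes lie at positive values on both axes, whereas esr2 and cckbrb are above the negative libraries and below the FSH libraries. Both axes use the LH libraries, so the slope is not a result.

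Among the 527 called genes LH library 2 was the lowest LH library more often than the others, with counts of 110, 226, 116 and 75 for libraries 1 to 4. Over the whole table library 3 was the lowest most often, with 376, 544, 602 and 327 genes, so that library 2 was the lowest for 42.9% of the called genes and 29.4% of the table. Of the 159 genes with at most 3 reads in every FSH library 62.9% were lowest in library 2, against 22.4% of the 143 that were also higher in FSH cells. The difference of log2(NR + 1) between library 2 and the mean of the other LH libraries had a median of -1.68 over the macrophage genes, -0.29 over the 3 LH cell genes, 0.47 over the secretory granule genes and 0.14 over the whole table. Without library 2, 500 genes were called higher and 14 lower. With the repeat number as a block, 514 were called higher and 20 lower.

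The largest fold changes after lhb belonged to matrix genes and nuclear receptors. The gene LOC100707060, which the study names col5a2, a chain of fibrillar type V collagen (linkage group 23, 20972252 to 20991149), had 160.2, 95.8, 133 and 124 NR in the LH libraries and 1.83, 3.501, 3.53 and 3.296 NR in the negative libraries. Every LH library was above every other library, and the log2 fold change was 5.003 ± 0.44 (adjusted p = 2.54e-07). The negative libraries all had at most 3 reads, so the size of this fold change is imprecise. FSH libraries, at 37.2, 10.4, 24.02 and 5.43 NR, lay between. The gene thbs4a (LOC100693277), for the matrix protein thrombospondin 4, had 50.2, 24.9, 34.6 and 45.4 NR in LH and 0, 5.25, 1.18 and 2.197 NR in negative libraries, of which the latter were all near the limit of detection. Its log2 fold change was 3.91 ± 0.58 over negative and 3.86 ± 0.58 over FSH libraries (adjusted p = 0.000135 and 5.88e-06). Both genes also stand on the list of vessel wall and fibroblast genes, of which the table holds 1 further member, dcn (the proteoglycan decorin), that was not called (log2 fold change 1.42 ± 0.72, adjusted p = 0.124). The summed level of the 3 was 127 to 218 NR in LH, 25.5 to 56.2 NR in FSH and 2.74 to 10.5 NR in negative libraries, and whether cells of that type contributed was not tested.

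The table holds 14 listed matrix genes, of which 8 were called higher (28.5% over the table) and none lower, with a median log2 fold change of 1.34 against 0.52 over the table. Beside the pair above these were col8a1 (2.35 ± 0.52, FSH libraries all at 0), tgfbi (1.76 ± 0.48), col27a1 (1.51 ± 0.37), spock2 (1.49 ± 0.32), col27a1b (LOC100698351, 1.26 ± 0.30) and col5a3a (LOC100695815, 1.17 ± 0.23). The collagen gene col27a1b had 408, 917, 687 and 849.7 NR in LH, 258, 199.5, 376 and 339.5 NR in negative and only 2.11, 4.64, 2.402 and 5.43 NR in FSH libraries, whereas col5a3a was higher in FSH libraries (615, 799, 771 and 445 NR) than in LH libraries (234, 388, 368 and 231 NR). The genes col27a1 and col27a1b, copies whose reads the counting could split, had opposite orders of FSH and negative libraries, since col27a1 had a log2 fold change of 2.26 and col27a1b of -6.01 in FSH over negative libraries. A further copy, col27a1a (LOC100694254), was not called (log2 fold change of LH -0.21 over negative and -2.20 against FSH libraries). The 6 uncalled members ranged from -0.82 to 1.42 on the log2 scale.

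Nuclear receptors are a family of transcription factors that includes the steroid receptors. Of 10 in the table, 8 were called higher (28.5% over the table) and none lower (median log2 fold change 1.65). Among those called, esr2, pgr and ar are receptors of steroid hormones. Estrogen receptor beta, esr2, had 71.3, 85.3, 94.7 and 88.3 NR in the LH libraries and 2.74, 8.75, 3.53 and 3.296 NR in the negative libraries, with no overlap and a log2 fold change of 4.05 ± 0.30 (adjusted p = 2.33e-08). It was higher still in the FSH libraries at 155, 189, 245 and 279 NR (LH over FSH -1.31 ± 0.30, adjusted p = 0.000555). The progesterone receptor pgr had 26.2, 18.4, 12.8 and 14.3 NR in LH and 0, 1.75, 2.35 and 2.197 NR in negative libraries, and it had no read in any FSH library. It rose by 2.97 ± 0.51 on the log2 scale over negative libraries (adjusted p = 0.000533). The negative libraries all had at most 3 reads of pgr, so the size of this fold change is imprecise. LH libraries were on average at least 4.62-fold higher than the FSH libraries at the limit of 3 reads per library. The androgen receptor ar had 16.7, 11.8, 21.9 and 14.3 NR in LH, 1.83, 8.75, 5.88 and 2.197 NR in negative and 49.9, 47.6, 43.2 and 44.4 NR in FSH libraries. LH libraries lay between the other fractions without overlap for ar, with a log2 fold change of 1.76 ± 0.40 over negative libraries (adjusted p = 0.00282). A second androgen receptor gene, ara, was not called (log2 fold change -0.08 over negative and -1.14 against FSH libraries).

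The nuclear receptor hnf4a, known from liver, had 49.5, 38.04, 34.6 and 38.7 NR in LH, 101, 55.7, 26.4 and 35.3 NR in FSH and 2.74, 3.501, 2.35 and 1.099 NR in negative libraries. Its log2 fold change over negative libraries was 3.63 ± 0.39 (adjusted p = 4.77e-06), and LH and FSH libraries overlapped. For hnf4a too the negative libraries all had at most 3 reads. The orphan receptors nr4a2 and nr4a3, which in mammals are induced soon after cell stimulation, had 454, 607, 364 and 423 NR and 2804, 3802, 3354 and 1924 NR in LH libraries against 268, 54.3, 142 and 175 NR and 1516, 1402, 859.9 and 1462 NR in negative libraries (log2 fold changes 1.71 ± 0.35 and 1.17 ± 0.25). In FSH libraries nr4a2 had 10.1 ± 2.25 NR (SD) on average, -3.68 on the log2 scale against negative libraries. The retinoid X receptor rxrgb (LOC100706800) was called at 1.597 ± 0.41, with 52.4, 22.3, 56.5 and 62.2 NR in the LH libraries, of which library 2 was the lowest. The estrogen-related receptor esrrb (LOC100690064, named by the study) was called at 1.25 ± 0.42, with 7.28, 10.5, 14.6 and 5.04 NR in LH and 153, 203, 195 and 147 NR in FSH libraries. Its call was lost without LH library 2 or 3 and without negative library 1 or 3 (log2 fold change 0.89 to 1.17), and that of nr4a3 without negative library 3 (0.98).

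Receptors for peptides numbered 19 in the table, of which 10 were called higher (28.5% over the table) and none lower (median log2 fold change 1.44). The GnRH receptor gene LOC100534508, named by the study and one of the marker genes of LH cells, had 81.5, 56.4, 72.9 and 72.3 NR in the LH libraries and 4.57, 10.5, 4.71 and 14.3 NR in the negative libraries, which did not overlap. It rose by 3.04 ± 0.45 on the log2 scale over negative cells (adjusted p = 0.000135) and was at 0.702, 1.16, 2.402 and 0 NR in the FSH libraries (LH over FSH 5.24 ± 0.45, adjusted p = 3.9e-09). Its paralogue gnrhr2 (LOC100534509) was not called against negative libraries (log2 fold change -1.06 ± 0.50) and had 52.1 ± 42.5 NR (SD) in FSH against 5.49 ± 1.26 NR in LH libraries.

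The neurotensin receptor ntsr1 had 281, 365, 184 and 382 NR in LH and 149, 24.5, 148 and 97.8 NR in negative libraries, a log2 fold change of 1.75 ± 0.49 (adjusted p = 0.00955). For adcyap1r1b (LOC100710530), a receptor for pituitary adenylate cyclase-activating peptide, the values were 237, 365, 148 and 382 NR and 129, 31.5, 155 and 108 NR, with a log2 fold change of 1.53 ± 0.47 (adjusted p = 0.0168). The angiotensin receptor agtr1 had 64.8, 81.3, 23.7 and 64.7 NR in LH and 26.5, 3.501, 35.3 and 12.1 NR in negative libraries (1.81 ± 0.55, adjusted p = 0.0157). FSH libraries had at most 2.72 NR of each of the 3, and LH libraries 2 and 4 were the highest for ntsr1 and adcyap1r1b, while the groups overlapped for adcyap1r1b and agtr1. Negative library 2 was the lowest for all 3, and without it agtr1 (1.21, adjusted p = 0.0608) and adcyap1r1b (1.03, 0.0676) were no longer called. The call of adcyap1r1b was also lost without LH library 2 or 4 (1.37 and 1.35).

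The galanin receptor galr2 (LOC102077197, named by the study) was called at 1.46 ± 0.49, with 16.7, 35.4, 21.9 and 33.6 NR in LH and 9.13, 5.25, 15.3 and 7.69 NR in negative libraries. That call was lost when LH library 2 or 4 or negative library 2 or 4 was left out (1.25 to 1.404). The glucagon receptor gcgr lay just outside the limit (log2 fold change 1.18 ± 0.47, adjusted p = 0.0539) although all 4 LH libraries, at 37.1, 52.5, 41.9 and 34.5 NR, were above all negative libraries. The cholecystokinin receptor cckbrb (LOC100700667), a marker gene of FSH cells, had 88.8, 66.9, 38.3 and 27.7 NR in LH, 22.8, 28.01, 8.23 and 18.7 NR in negative and 9668, 10030.4, 6476 and 9130.3 NR in FSH libraries. Its log2 fold change was 1.44 ± 0.34 over negative libraries (adjusted p = 0.0036) and -7.41 ± 0.34 against FSH libraries.

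**Figure D3:**
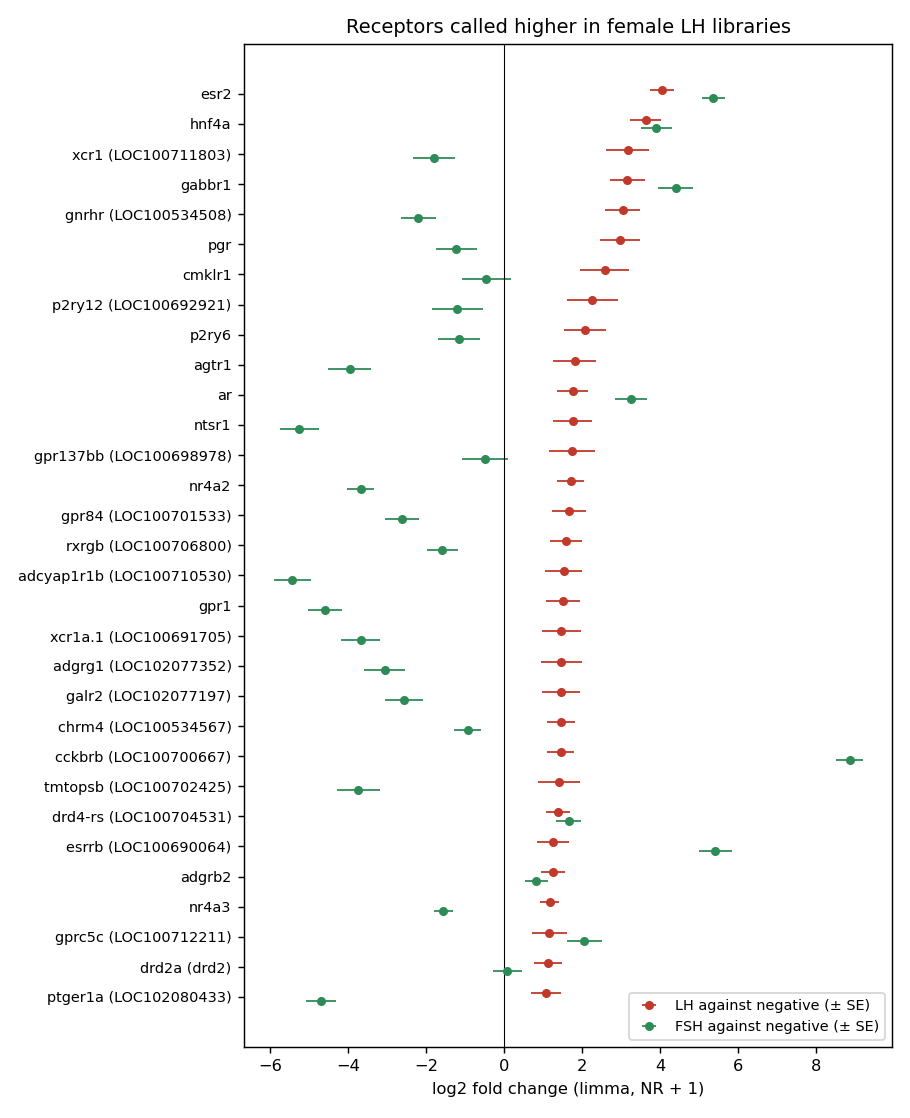
Log2 fold change over negative libraries, with standard error, of the 31 receptors of the peptide, other G protein-coupled and nuclear receptor lists that were called higher in female LH libraries, for LH (red) and FSH (green) libraries. Most green points lie left of 0, while esr2, hnf4a, gabbr1, ar, cckbrb, esrrb, drd4-rs and gprc5c are right of 1 in both fractions.

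A further 4 called peptide receptors bind chemokines or chemerin, and all but gpr1 stand on the list of white blood cell genes. They were the chemokine receptors xcr1 (LOC100711803, named by the study) and xcr1a.1 (LOC100691705) and the chemerin receptors cmklr1 and gpr1, with log2 fold changes of 3.16 ± 0.55, 1.47 ± 0.49, 2.57 ± 0.64 and 1.51 ± 0.44. The gene xcr1 had 37.9, 11.8, 47.4 and 37.8 NR in LH, 0.913, 3.501, 7.06 and 1.099 NR in negative and no reads in FSH libraries. LH library 2 was the lowest LH library for each of the 4 genes. The call of xcr1a.1 was lost without LH library 1 or 3 or negative library 4 (1.23 to 1.32), and that of gpr1 without LH library 1 (1.26, adjusted p = 0.0523).

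Among 29 other G protein-coupled receptors 13 were called higher (28.5% over the table) and 1 lower (1.14% over the table), with a median log2 fold change of 0.98. The GABA type B receptor gene gabbr1 had 124, 48.5, 36.4 and 86.6 NR in LH and 10.05, 12.3, 5.88 and 2.197 NR in negative libraries and rose by 3.15 ± 0.45 on the log2 scale (adjusted p = 9.94e-05). In FSH libraries gabbr1 was higher, at 320, 124, 142 and 108 NR, with groups that overlapped (LH over FSH -1.24 ± 0.45, adjusted p = 0.015). Its annotated paralogue gabbr1a (LOC100695498) stayed under the fold change limit at 0.83 ± 0.19 with groups that did not overlap. The muscarinic acetylcholine receptor chrm4 (LOC100534567, named by the study) was called at 1.46 ± 0.35, the dopamine receptor drd4-rs (LOC100704531) at 1.39 ± 0.31 and the adhesion receptor adgrb2 at 1.25 ± 0.30. The dopamine D2 receptor drd2a had 42.2, 51.2, 21.9 and 29.4 NR in LH and 16.4, 14.003, 15.3 and 15.4 NR in negative libraries (1.12 ± 0.36, adjusted p = 0.0211). The prostaglandin E receptor ptger1a (LOC102080433) had 69.9, 122, 65.6 and 69.8 NR in LH, 44.8, 35.01, 25.9 and 46.1 NR in negative and at most 1.40 NR in FSH libraries (1.07 ± 0.38).

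The remaining calls of that list were the nucleotide receptors p2ry6 (2.08 ± 0.53) and p2ry12 (LOC100692921, 2.26 ± 0.65), gpr84 (LOC100701533, 1.66 ± 0.44), gpr137bb (LOC100698978, 1.73 ± 0.59), the opsin tmtopsb (LOC100702425, 1.404 ± 0.55), adgrg1 (LOC102077352, 1.46 ± 0.52) and gprc5c (LOC100712211, 1.16 ± 0.44). Leaving out LH library 1 ended the calls of drd2a, ptger1a, tmtopsb, adgrg1 and gprc5c, and leaving out LH library 2 those of drd2a, ptger1a, tmtopsb, gprc5c and gpr137bb, so that 8 of 29 remained in either case, a share near the 28.5% called over the table. LH library 3 mattered to gpr137bb, adgrg1 and gprc5c, and LH library 4 to ptger1a, tmtopsb, adgrg1 and gprc5c. Negative library 1 decided adgrg1 and gprc5c, library 2 ptger1a, tmtopsb and gpr137bb, library 3 ptger1a and gprc5c, and library 4 tmtopsb, adgrg1 and gprc5c. In those fits the log2 fold change was 0.94 to 1.03 for drd2a, 0.87 to 1.13 for ptger1a, 0.88 to 1.56 for tmtopsb, 1.19 to 1.41 for adgrg1, 1.02 to 1.24 for gprc5c and 1.44 to 1.58 for gpr137bb. With the repeat number as a block, tmtopsb (adjusted p = 0.0559) and gprc5c (0.0515) were not called. Both also lost their calls in edgeR (adjusted p = 0.107 and 0.0518) and in DESeq2 (0.128 and 0.0576).

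The study lists 25 receptors for female LH cells, of which it assigns drd4-rs, adgrb2 and gabbr1a to LH and FSH cells together. The 25 were chosen on these libraries, so that they are no independent evidence. Among them p2ry12 and gpr84 also stand on the macrophage list. The genes xcr1, xcr1a.1, cmklr1 and ccr12a stand on the white blood cell list, and ramp2 on the endothelial list. All 25 are in the table, and 20 were called higher (28.5% over the table). The other 5 were gcgr, gabbr1a, ramp2, ccr12a (LOC100708026) and adgrb1 (LOC100705251, named by the study), with log2 fold changes of 0.83 to 1.18. In 14 of the 25 the FSH libraries had at most 3 reads each, as in 217 of all 1849 genes. Of the 25, 12 were lowest in LH library 2, as were 29.4% of the table and 42.9% of the called genes.

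Of 18 voltage-gated and calcium-activated channel genes, 2 were called higher in LH libraries (28.5% over the table). The other 16 had log2 fold changes of at most 0.72 and so could enter the table only through the FSH libraries. That choice fixes most of the count of 17 called higher in FSH than in negative libraries (69.7% over the table). The calcium channel gene cacna1ea (LOC100706720) had 1168, 2611, 1481 and 2039 NR in LH and 792, 499, 985 and 823 NR in negative libraries (1.21 ± 0.26, adjusted p = 0.00195). The accessory calcium channel subunit cacna2d3 (LOC100694025) was called at 1.897 ± 0.50, with 86.6, 23.6, 36.4 and 72.3 NR in LH libraries and 8.22, 12.3, 24.7 and 8.79 NR in negative libraries, and the groups overlapped at library LH 2. The connexin gjd2, which forms gap junctions between excitable cells, had 288, 609.9, 279 and 300.1 NR in LH and 206, 105, 207 and 186 NR in negative libraries and was called at 1.03 ± 0.29. It was not called without LH library 2 (0.76) or negative library 2 (0.8002).

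Of 20 genes of secretory granules and their release, 2 were called higher (28.5% over the table) and none lower, and their median log2 fold change of 0.47 was close to the 0.52 of the table. Synaptotagmin syt7a (LOC100690092), a calcium sensor of exocytosis, was called at 1.13 ± 0.24 and the prohormone convertase pcsk1 at 1.07 ± 0.30. LH libraries had 574, 871, 348 and 456 NR of pcsk1 and FSH libraries 1251, 1284, 1151 and 2880.2 NR. Without LH library 2 or negative library 2 neither was called, at 0.98 and 0.95 for syt7a and 0.84 and 0.88 for pcsk1. Among 5 pituitary transcription factor genes (28.5% called over the table) foxl2a, which activates gonadotropin genes in mammals, was the one called higher (1.09 ± 0.22), with 106, 118, 74.7 and 111 NR in LH, 34.7, 45.5, 67.05 and 46.1 NR in negative and 453, 368, 339 and 375 NR in FSH libraries. Without negative library 1 its log2 fold change was 0.94 and under the limit.

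Calcium and calmodulin signalling genes were called higher in 6 of 7 cases, against 28.5% of the table (median log2 fold change 1.32). The list was chosen with earlier results of these data known, and the study names LOC100703182 and dclk3 among its most enriched genes. The share is therefore a description. LOC100703182, named pcp4 by the study for a calmodulin-binding peptide, had 14.6, 7.87, 23.7 and 5.04 NR in LH libraries, 16.9, 12.8, 2.402 and 7.24 NR in FSH libraries and no reads in negative libraries. The LH libraries were on average at least 3.45-fold above the limit of 3 reads per negative library. A second gene deposited as pcp4 had 29.1, 38.04, 29.2 and 28.6 NR in LH and 14.6, 1.75, 11.8 and 8.79 NR in negative libraries, but at most 1.16 NR in FSH libraries, with a log2 fold change of 1.903 ± 0.52 over negative libraries. The kinases dclk3 (2.297 ± 0.38), camkk1 (1.25 ± 0.32), camk1gb (LOC100701248, 1.32 ± 0.42) and camk2a (LOC100696487, 1.16 ± 0.45) were also called. The call of camk2a was lost in all 4 fits without an LH library and without negative library 1 or 3 (0.82 to 1.203), and with the repeat number as a block (adjusted p = 0.0509). This call was also lost in edgeR (adjusted p = 0.0862) and in DESeq2 (0.0831). That of camkk1 was lost without negative library 2 (0.94), and that of camk1gb without LH library 2 or negative library 2 or 3 (0.95 to 1.17).

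Growth factor genes and their receptors were called higher in 6 of 14 cases, against 28.5% of the table. The receptor fgfr4 (LOC100692465, linkage group 10, 23700824 to 23718573) had 137, 87.9, 87.5 and 88.3 NR in LH, 10.96, 14.003, 10.6 and 10.99 NR in negative and 14.05, 8.13, 2.402 and 1.81 NR in FSH libraries. LH libraries were all above the rest, with a log2 fold change of 2.98 ± 0.44 over negative and 4.04 ± 0.44 over FSH libraries (adjusted p = 0.000135 and 1.06e-07). The gene fgf13b (LOC100710934) was called at 1.68 ± 0.25 and had its highest level in FSH libraries (293, 265, 408 and 254 NR against 41.5, 31.5, 38.3 and 36.1 NR in LH libraries). The others were engl (LOC102080817, 1.52 ± 0.60), fgf18a (LOC100704516, 1.32 ± 0.49), pdgfbb (LOC100707172, 1.21 ± 0.41) and klb (1.02 ± 0.39), a co-receptor of endocrine fibroblast growth factors. Each of these 4 calls was lost in 5 or more of the 8 fits that left out 1 LH or negative library, at 1.27 to 1.53 for engl, 1.05 to 1.41 for fgf18a, 0.99 to 1.26 for pdgfbb and 0.72 to 1.11 for klb, and engl also with the repeat number as a block (adjusted p = 0.0702).

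Apelin (apln), a secreted peptide, had 57.5, 41.97, 32.8 and 46.2 NR in LH, 63.2, 58.05, 52.8 and 53.4 NR in FSH and 1.83, 8.75, 8.23 and 2.197 NR in negative libraries, so that both gonadotroph fractions were above negative cells (LH 3.07 ± 0.39, adjusted p = 3.16e-05). Of the 15 largest fold changes, 3 belong to genes that the annotation does not name. LOC102083321 is described by the study as a probable cyclin-dependent serine/threonine-protein kinase, among its most enriched LH cell genes. It had 32.8, 15.7, 16.4 and 14.3 NR in LH, 0, 3.501, 1.18 and 0 NR in negative and 0, 0, 0 and 0.905 NR in FSH libraries (3.48 ± 0.57). LOC102077685 was called at 3.23 ± 0.47 with 60.4, 44.6, 29.2 and 40.3 NR in LH and 3.65, 7.001, 4.71 and 1.099 NR in negative libraries. The third, LOC100707031, had 7.28, 14.4, 3.64 and 6.72 NR in LH libraries and no reads in negative libraries, so that LH libraries were on average at least 2.17-fold above 3 reads per library.

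The 10 called genes taken for the most NR in LH libraries, a choice that gene length affects, were cd74, cd74b, nr4a3, cacna1ea, lhb, apoeb, LOC109201927, creb3l1, atp1a3b and psap. LOC109201927, which has no name, had 852, 1729, 1039 and 836 NR in LH, 450.3, 362, 499 and 590.0 NR in negative and no reads in FSH libraries (1.18 ± 0.25), and it was under the fold change limit without LH library 2 (0.95). The transcription factor gene creb3l1 was called at 1.18 ± 0.26 and lost its call without LH library 2 (0.896). The sodium pump subunit atp1a3b (LOC100712391) was just past the limit at 1.004 ± 0.21, and it was under it without LH library 2 or negative library 2 or 3 (0.81 to 0.96).

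Genes of macrophages and microglia, the phagocytes of blood, tissue and brain, formed a further group. All 9 listed genes in the table were called higher in LH than in negative libraries (28.5% over the table), with a median log2 fold change of 2.26. All 9 were also called higher in LH than in FSH libraries (24.5% over the table). None of the 9 was called higher in FSH than in negative libraries (69.7% over the table), and 8 were called lower there (18.8% over the table). They could thus enter the table only through the LH libraries, so that these counts follow from the choice of the table's genes. The receptor csf1r, which macrophages need for survival, had 359, 104, 446 and 498 NR in LH, 18.3, 36.8, 59.99 and 26.4 NR in negative and no reads in FSH libraries (3.19 ± 0.44, adjusted p = 9.3e-05). Apolipoprotein E, apoeb (LOC100699941), had 969.7, 416, 1581 and 1552 NR in LH, 54.8, 137, 260.0 and 114 NR in negative and 5.62, 2.32, 9.61 and 0.905 NR in FSH libraries (3.02 ± 0.50, adjusted p = 0.000396). LH libraries were above negative libraries without overlap for both genes, and LH library 2 was the lowest of the 4.

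**Figure D4:**
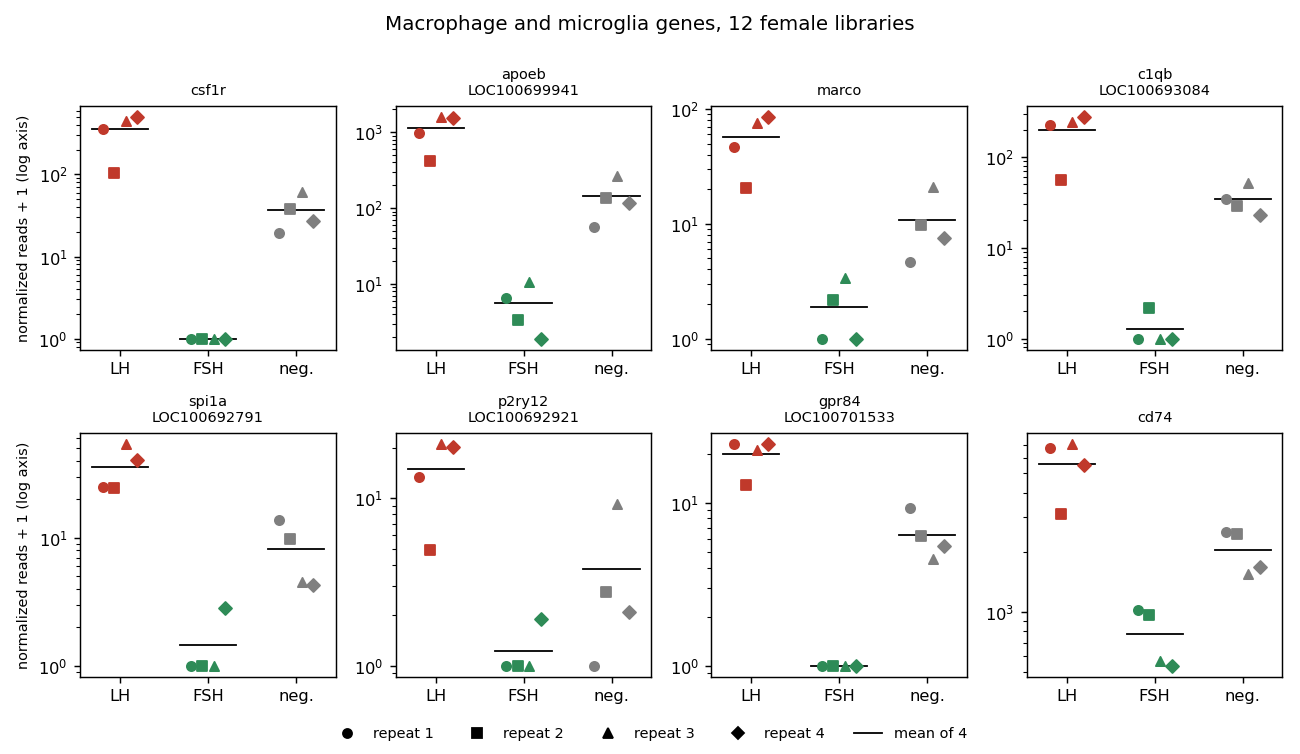
Normalized reads plus 1 (log axis) of 8 of the 9 macrophage and microglia genes in the 12 female libraries, by fraction, with the repeat number as the symbol and the mean of 4 libraries as the line. LH libraries are the highest on average for each gene and FSH libraries the lowest, and the square of repeat 2 is the lowest LH library in every panel.

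The complement gene c1qb (LOC100693084) had 224, 55.1, 241 and 273 NR in LH and 33.8, 28.01, 50.6 and 21.98 NR in negative libraries (2.36 ± 0.46). The scavenger receptor marco (2.44 ± 0.56), the myeloid transcription factor spi1a (LOC100692791, 2.25 ± 0.51), p2ry12 and gpr84 made up the rest of the group with cd74 (1.41 ± 0.28) and cd74b (LOC100706178, 1.496 ± 0.29), which code for the invariant chain of MHC class II. Groups overlapped for marco, with 45.9, 19.7, 74.7 and 84.05 NR in LH and 3.65, 8.75, 19.997 and 6.59 NR in negative libraries, and for p2ry12. In 6 of the 9 genes the FSH libraries had at most 3 reads each, whereas cd74 had 1021, 959, 567 and 534 NR there.

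Without the cd74 pair, the summed level of the other 7 genes was 1656, 634, 2436 and 2488 NR in LH libraries 1 to 4, 132 to 406 NR in the negative libraries and 3.62 to 12.01 NR in the FSH libraries. All 9 genes were lowest in LH library 2, against 29.4% of the table and 42.9% of the called genes. Among called genes with at most 3 reads in every FSH library the share was 62.9%. Each of the 9 stayed called in every fit that left out 1 library. Since the 9 entered the table through these same LH libraries, this is a description. The other white blood cell genes, xcr1, xcr1a.1, cmklr1 and ccr12a, had a summed level of 185, 64.3, 199 and 144 NR in LH libraries, 29.7 to 49.3 NR in negative and 0.905 to 5.805 NR in FSH libraries. Of the 4, 3 were called higher (28.5% over the table). None was called higher in FSH than in negative libraries (69.7% over the table), so that they too entered the table through the LH libraries. No member of the lists of T, NK and B cells, neutrophils, red cells and thrombocytes or dividing cells is among the table's genes. The macrophage and white blood cell genes shared their lowest LH library, library 2, with 226 of the 527 called genes. Whether called genes varied with the summed levels of these lists was not tested, nor was the source of the listed genes.

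Further genes of this kind were picked after their values had been seen. Apolipoprotein C-I, apoc1 (LOC100712028), which also ranks among the 15 largest fold changes, had 91.002, 48.5, 120.3 and 145 NR in LH, 3.65, 15.8, 14.1 and 7.69 NR in negative and no reads in FSH libraries (3.23 ± 0.46, adjusted p = 9.94e-05). The regulators mafbb (LOC100696871, 2.45 ± 0.53), cebpa (1.93 ± 0.57) and ciita (1.499 ± 0.30), of which ciita switches on MHC class II genes, were called, as were dab2 (1.93 ± 0.42), card9 (LOC102078975, 1.63 ± 0.45), the cyclooxygenase gene ptgs2 (1.93 ± 0.49) and the colony-stimulating factor csf3a (LOC100691426, 2.59 ± 0.60). Each of these had its lowest LH value in library 2, as for ciita with 593, 304, 802 and 773 NR in LH libraries 1 to 4. Library 2 was the lowest for 226 of all 527 called genes, and the shared lowest library of genes picked this way is a description. The call of cebpa was lost without negative library 1 (1.41) and that of card9 without LH library 4 (1.23).

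A set of 9 lysosomal genes was picked in the same way from the genes already called higher, so that it gives no count of lysosomal genes in the table. These 9 were lowest in LH library 2, as were 42.9% of the called genes. Since the 9 were picked with their values known, this is a description. The sphingolipid activator psap had 1091, 531, 971 and 973 NR in LH, 430.2, 366, 329 and 408 NR in negative and 290.1, 249.6, 243 and 239.9 NR in FSH libraries (1.17 ± 0.21, adjusted p = 0.000828). Cathepsin A (ctsa, 1.498 ± 0.37), scpep1 (1.47 ± 0.38), gla (1.199 ± 0.33), neu1 (1.17 ± 0.29), naga (1.16 ± 0.32), hpse (1.16 ± 0.33), ctsd (1.13 ± 0.29) and ctsh (1.11 ± 0.34) were called as well. None of the 9 is in the male table, and neither are 223 of all 527 called genes. Calls were lost for ctsd without LH library 4 or negative library 2 (0.92 to 0.97), for ctsh without LH library 1 or 3 or negative library 3 (0.96 to 0.97) and for naga without negative library 4 (0.98).

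The thyrostimulin beta subunit gphb5, a further glycoprotein hormone gene, was also chosen after its values were seen. It had 50.2, 6.56, 27.3 and 54.6 NR in LH, 1.83, 5.25, 10.6 and 4.39 NR in negative and 2.81, 4.64, 0 and 0.905 NR in FSH libraries, with a log2 fold change of 2.28 ± 0.65 (adjusted p = 0.0106). LH library 2 lay within the range of the negative libraries.

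Endothelial genes gave 2 calls among 5, against 28.5% of the table. The transcription factor sox17 had 52.4, 23.6, 63.8 and 39.5 NR in LH, 10.96, 17.5, 5.88 and 9.89 NR in negative and no reads in FSH libraries (1.93 ± 0.43), and the scavenger receptor stab1, which macrophages also use, had 53.9, 49.8, 72.9 and 77.3 NR and 25.6, 28.01, 34.1 and 27.5 NR in LH and negative libraries (1.097 ± 0.33). Without LH library 4 the call of stab1 was lost (0.996). The vascular growth factor receptor kdrl (LOC100707615), a defining gene of the type, had 26.9, 178, 78.3 and 31.9 NR in LH and 16.4, 22.8, 24.7 and 53.8 NR in negative libraries and was not called (1.12 ± 0.73), nor were ramp2 (1.05 ± 0.62) and esamb (LOC100700226, -0.65 ± 0.54). The summed level of the 5 was 167 to 279 NR in LH, 63.9 to 113 NR in negative and 14.4 to 47.1 NR in FSH libraries. The glial gene fabp7a and the neuronal genes elavl4 and snap25 were not called.

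FSH cell genes were at low levels in the LH libraries. Of the 5 listed, 1 (cckbrb) was called higher in LH than in negative libraries (28.5% over the table). Their summed level was 104 to 168 NR in LH and 69.2 to 102 NR in negative libraries, against 34315 to 62018 NR in FSH libraries. The cone phosphodiesterase subunit pde6hb (LOC100690909), a gene high in FSH cells, had 16.02, 26.2, 20.04 and 20.2 NR in LH, 22.8, 17.5, 7.06 and 17.6 NR in negative and 2683, 3532, 2688 and 7075 NR in FSH libraries (0.41 ± 0.33 over negative libraries). For fshb the LH and negative libraries overlapped, as given above.

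The 21 genes called lower in LH than in negative libraries were all called higher in FSH than in negative libraries, a condition that the choice of the table's genes fixes. Groups were apart for 11 of them, and all LH libraries lay below all negative libraries for 1.46% of the table. The lowest fold change, of s100w (LOC100705245, -2.62 ± 0.57), had overlapping groups, as did pard6gb (LOC100709239, -1.92 ± 0.41). The 8 lowest genes with groups apart follow. The phosphatase inhibitor ppp1r14c had 2.91, 1.31, 3.64 and 4.202 NR in LH and 7.31, 15.8, 29.4 and 15.4 NR in negative libraries (-2.08 ± 0.42, adjusted p = 0.00157). The transcription factor mef2b had 6.55, 1.31, 3.64 and 1.68 NR and 21.9, 17.5, 9.41 and 13.2 NR (-2.04 ± 0.43, adjusted p = 0.00195). Next among genes with groups apart came the potassium channel kcnk4a (LOC106098186, -1.65 ± 0.53), the amino acid transporter slc6a20 (-1.49 ± 0.34) and the adenylyl cyclase adcy8 (-1.297 ± 0.36). After them came the adhesion gene dscamb (LOC100693769, -1.22 ± 0.29), adarb2 (LOC100702111, -1.19 ± 0.24) and the semaphorin sema4d (-1.16 ± 0.40). On the list of other G protein-coupled receptors, the metabotropic glutamate receptor grm7 (LOC100705106) was the gene called lower, at -1.69 ± 0.52, with groups that overlapped. The calls of kcnk4a (without LH library 2 or negative library 4, -1.28 to -1.24), sema4d (without LH library 2 or negative library 1 or 4, -1.07 to -0.84) and grm7 (without negative library 2, -1.42) were lost.

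Male libraries gave the same contrast in other fish, normalized separately, so that only fold changes are set side by side. Of the 527 genes 304 are in the male table, and 273 of these were called higher in male LH cells, where 51.2% of the male table was called. No gene of the 304 was called lower there (0.627% of the male table). A gene not raised in male FSH libraries could enter the male table only through the male LH libraries. These counts therefore follow in part from the choice of its genes and are descriptions, and the 51.2% includes genes that entered through the FSH libraries. The 223 other genes of the 527 are not among the male table's genes. Neither are any of the 9 macrophage genes, the 4 white blood cell genes and 4 of the 5 endothelial genes. Of the 159 genes with at most 3 reads in every FSH library, 110 (69.2%) are not in the male table, against 11 (7.69%) of the 143 that were also higher in female FSH cells. Genes raised in FSH cells could also enter the male table through the male FSH libraries, so this contrast follows in part from the choice of its genes. Since the male table was chosen by the same rule on male libraries, a gene outside it was not analysed here in males.

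For lhb the male log2 fold change was 8.74 ± 0.54 and the female 7.503 ± 0.36, and the difference of -1.24 ± 0.69 did not pass the test (adjusted p = 0.227). The GnRH receptor (male 3.53 ± 0.40), pgr (3.71 ± 0.46) and hnf4a (3.49 ± 0.38) were also called in males, with differences that did not pass the test (adjusted p = 0.62, 0.483 and 0.891). The interaction of sex and fraction passed for 167 of the 1309 genes in both tables (12.8%). It passed for 22 of 127 named genes, of which 13 are list members that were not called in females and had lower fold changes there than in males. Since these 13 had failed the female limits, their direction follows in part from that choice. Among the 59 with values of their own the interaction passed for 9. Of these, col5a2 had the higher fold change in females (5.003 ± 0.44 against 1.53 ± 0.51, adjusted p of the difference 0.0039). Lower in females were foxl2a (1.09 ± 0.22 against 4.05 ± 0.35, 0.000151), cga (0.45 ± 0.31 against 2.43 ± 0.38, 0.0153), drd2a (1.12 ± 0.36 against 3.101 ± 0.31, 0.0107) and apln (3.07 ± 0.39 against 4.93 ± 0.35, 0.0254). The same held for fgfr4 (2.98 ± 0.44 against 4.91 ± 0.41, 0.0391), camk1gb (1.32 ± 0.42 against 3.98 ± 0.46, 0.0124), gabbr1a (0.83 ± 0.19 against 1.75 ± 0.22, 0.0336) and adarb2 (-1.19 ± 0.24 against 0.95 ± 0.42, 0.00856). For esr2 the difference of -1.51 ± 0.52 lay just outside the limit (adjusted p = 0.052).

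**Figure D5:**
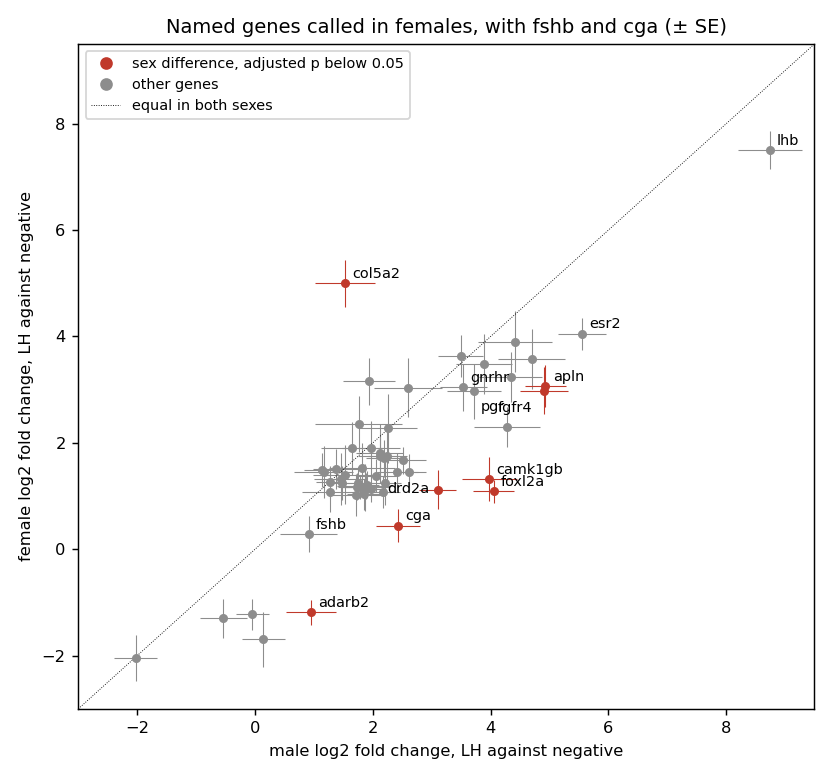
Female against male log2 fold change of LH over negative libraries, with standard errors, for 57 named genes that both tables hold, those called in females together with fshb and cga. The dotted line marks equal values, and the 8 genes in red differed between the sexes, with col5a2 above the line and the other 7 below it.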

How the data were processed

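RNA from sorted pools was read as single-end sequences, per the study's methods, and mapped with STAR to O_niloticus_UMD_NMBU, and uniquely mapped reads were assigned to known genes. The authors deposited normalized reads (signal), which are gene counts divided by 1 DESeq2 size factor per library, for genes they had kept as enriched in LH or FSH cells. All values came out within 0.01 of a whole read when divided by the step of their library. The deposited tables of the authors' own fold changes and p-values were not used.

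Differences of log2(NR + 1) were tested with limma 3.58.1 in R 4.3.3, with a mean-variance trend and the 3 female fractions in 1 fit, and p-values were adjusted by Benjamini-Hochberg over the 1849 genes. The script was tested on simulated data. Alternatives were other pseudocounts, a level filter, other limits, edgeR 4.0.16 and DESeq2 1.42.0 on the recovered reads, a replicate block and leaving out each library. No 2 libraries of a fraction agreed within sampling noise. Fractions share repeat numbers in the labels, and the series text describes a procedure repeated 4 times per sex, from which a shared sort is inferred. The correlation of their deviations was 0.15, -0.28, -0.16 and -0.13 for LH and negative libraries. The libraries of a fraction are separate repeats on pooled fish.

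Of 1849 female IDs all but 266 matched the RefSeq gene table, and names came from it, or from the study for IDs so marked. Named are the subunits, the 15 largest and the 8 lowest fold changes and the 10 highest levels among called genes whose groups did not overlap, list members and the study's receptors, with genes outside this rule marked in the text. Members and lists were chosen with earlier results of these data known. No sequences were printed.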

Additional observations from a re-analysis of the deposited data

Results flagged for a closer look

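In 230 checks of 4 libraries for 1 far from the rest, 17 were found, and chance alone gives about 1 in 20. The value is the gap to the nearest library as a share of the whole range. LH library 2 stood apart as the highest for gjd2 (0.936), ptger1a (0.924), gabbr1a (0.871) and the gene deposited as pcp4 (0.939), and as the lowest for scpep1 (0.898). LH library 1 was the highest for fgfr4 (0.984) and LOC102083321 (0.886) and the lowest for dscamb (0.937), and LH library 3 was the highest for adcy8 (0.916).

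Among negative libraries, number 2 was the highest for fgfr4 (0.883), esr2 (0.869) and engl (0.859), and number 1 was the highest for pdgfbb (0.922) and the lowest for col5a2 (0.863). Negative library 3 was the highest for adgrb2 (0.835) and for the summed neuronal genes (0.877) and the lowest for col8a1 (0.856). For esr2, col5a2, col8a1 and engl these negative levels were near the limit of detection.

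The LH fold change differed between the sexes in 9 of the 59 named genes with values of their own, tested by the interaction of sex and fraction. With list members that were not called it differed in 22 of 127. The female minus male difference on the log2 scale was 3.48 for col5a2. It was below 0 for foxl2a (-2.97), camk1gb (-2.66), adarb2 (-2.14), cga (-1.98), drd2a (-1.98), fgfr4 (-1.93), apln (-1.86) and gabbr1a (-0.92). Sexes were normalized in separate tables and sorted separately, so that sex and sort cannot be told apart.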

How the results depend on the processing

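The number of genes called higher, 527, was 463 with a pseudocount of 5, 484 with 0.5, 599 in edgeR, 600 in DESeq2 and 514 with the repeat number as a replicate block, and 429 to 506 when 1 library was left out. A log2 fold change limit of 2 left 78 higher and 3 lower genes. The 21 genes called lower became 9 with a pseudocount of 5 and 39 with no limit on the fold change, and 14 to 31 when 1 library was left out. Genes called higher in LH than in FSH libraries numbered 453, and 447 to 453 when 1 library was left out. The sign of fshb against negative libraries turned without negative library 2 (from -0.0015 to 0.6889 on the log2 scale when 1 library was left out), and it was called in no setting. Of 101 called named genes, 62 were called under all settings but the fold change limit of 2. The block ended the calls of camk2a, gprc5c, tmtopsb and engl and of no other named gene. In edgeR and DESeq2 those of camk2a, gprc5c and tmtopsb were lost. A fit of LH and negative libraries alone ended those of camk2a, tmtopsb and esrrb. Counts of called list members under each setting were added after seeing the data. Genes outside the deposited tables were not analysed here, and a level of a few reads leaves fold changes of low genes imprecise.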

Other observations

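The receptor genes ntsr1 and adcyap1r1b, which lie on different linkage groups, had the same level in LH library 2 (365 NR) and in LH library 4 (382 NR), but not in libraries 1 and 3.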
